A study of Mus musculus with 8 samples.

Results

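The 446 regions described here were the least accessible, of 4 sorted T cell groups, in regulatory T cells (Tregs) from the visceral adipose tissue (VAT) of male mice. They were selected on measured values, from 45402 distinct regions on the 19 autosomes, so they make up 0.982% of those regions. A region was taken where both male VAT Treg libraries had fewer CPM (counts x 1e6 / the library sum over autosomal regions) than each of the 6 other libraries. In addition, the male VAT Treg mean had to be at most 0.75 times the mean of each other group, and the 6 other libraries had to average at least 3 CPM. Of the autosomal regions, 32837 reached that minimum. The same rule turned to another group gave 362 regions lowest in male spleen Tregs, 167 lowest in female VAT Tregs and 2004 lowest in male VAT CD4+ cells.

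The study measured chromatin accessibility by ATAC-seq, an assay that sequences the sites where a transposase can reach the DNA, to compare Tregs between the sexes and between spleen and fat. All mice were C57BL/6 carrying a red fluorescent protein reporter in Foxp3 (Foxp3RFP), so reporter-positive cells were sorted as Tregs. The 4 groups were Tregs from male spleen, Tregs from male VAT, Tregs from female VAT, and reporter-negative CD4+ T cells from male VAT. Each group had 2 libraries, each made from sorted cells pooled from 3 mice, and ages were not given. Female spleen Tregs and female CD4+ cells were not analysed here, so the sexes were compared within VAT Tregs only.

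Tregs are CD4+ T cells that restrain immune responses and depend on the transcription factor Foxp3. Those living in visceral fat take on a tissue programme that differs from that of Tregs circulating through lymphoid organs, and in mice this programme is known to be more pronounced in males. A resting, recirculating T cell keeps open chromatin at genes such as Tcf7, Ccr7 and Foxo1, which tissue-resident effector cells tend to shut down.

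Autosomal counts ranged from 5669084 to 15630184 per library. Summed over the 6 regions assigned to Foxp3, accessibility was 114 CPM in both female VAT Treg libraries, 89.2 and 54.5 in the male ones, 56.0 and 70.3 in spleen Tregs and 35.1 and 39.5 in the reporter-negative CD4+ cells. All 6 Treg libraries were above both CD4+ libraries at Foxp3, and at Ctla4 too (104.5 to 135.8 CPM against 65.6 and 91.7). Other Treg markers did not separate the groups. At Il2ra, CD4 replicate 2 had 61.1 CPM, more than every Treg library except male VAT Treg replicate 1 (81.7). At Ikzf2, male VAT Treg replicate 2 had 132.8 CPM, below CD4 replicate 2 at 138.9. Cd3d, a component of the T cell receptor complex, was covered at 37.8 to 73.8 CPM in all 8. Foxp3 lies on the X chromosome and CPM are scaled to autosomal counts, so female and male VAT Tregs were not compared on it. In bulk cells, fewer cells of a kind and lower accessibility per cell cannot be told apart. Regions assigned to markers of other cell types summed to 136 to 196 CPM for B cells (14 regions) in the 6 other libraries and to 181 and 133 in the male VAT Treg libraries. For myeloid cells (23 regions) the sums were 207 to 286 CPM against 277 and 210, for CD8 and NK cells (22 regions) 191 to 224 against 224 and 200.2, for adipocytes (25 regions) 176 to 213 against 206 and 172, and for stromal and endothelial cells (30 regions) 246 to 276 against 269.7 and 263. Male replicate 2 was below replicate 1 in each list, and the part of these cells in the results was not tested.

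Of the regions described, 87 hold a whole promoter window as defined by RefSeq (250 bases before to 50 bases after a gene's start, GRCm38.p6). Promoters of 4 genes the results turn on are shown, because each lies whole inside a region that was lowest in male VAT Tregs and each stands for a different setting: the T cell kinase Lck, the signal transducer Stat5b, the Polycomb protein Cbx7 and the protease inhibitor Timp2. Capitals mark matches, on either strand, to any of 8 sets of letters: CTTTGAA or ACAAAG (TCF/LEF), GGAAGT (ETS), TGTGGT or TGCGGT (RUNX), TGANTCA (AP-1), GGGCGG (SP and KLF), CCAAT (NFY), CACGTG (E-box) and GCATGCGC (NRF1).
Lck (chr4:129558323-129558622, minus strand): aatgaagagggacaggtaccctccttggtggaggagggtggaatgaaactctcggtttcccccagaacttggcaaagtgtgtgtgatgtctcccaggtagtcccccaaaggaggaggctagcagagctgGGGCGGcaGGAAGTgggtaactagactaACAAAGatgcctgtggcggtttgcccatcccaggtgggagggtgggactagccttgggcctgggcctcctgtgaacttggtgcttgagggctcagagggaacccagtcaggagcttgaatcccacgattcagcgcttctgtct
Stat5b (chr11:100822521-100822820, minus strand): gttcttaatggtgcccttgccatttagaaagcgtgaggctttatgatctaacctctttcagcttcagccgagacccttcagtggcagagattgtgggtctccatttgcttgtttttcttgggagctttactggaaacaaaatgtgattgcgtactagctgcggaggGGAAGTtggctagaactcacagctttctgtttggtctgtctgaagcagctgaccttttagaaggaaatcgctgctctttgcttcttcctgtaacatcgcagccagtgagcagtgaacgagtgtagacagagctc
Cbx7 (chr15:79932597-79932896, minus strand): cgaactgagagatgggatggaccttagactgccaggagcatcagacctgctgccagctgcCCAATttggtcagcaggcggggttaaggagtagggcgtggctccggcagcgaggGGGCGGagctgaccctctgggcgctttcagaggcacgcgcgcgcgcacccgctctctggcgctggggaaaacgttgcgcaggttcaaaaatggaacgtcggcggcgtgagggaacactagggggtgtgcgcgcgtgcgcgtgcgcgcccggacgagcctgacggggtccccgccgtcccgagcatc
Timp2 (chr11:118355362-118355661, minus strand): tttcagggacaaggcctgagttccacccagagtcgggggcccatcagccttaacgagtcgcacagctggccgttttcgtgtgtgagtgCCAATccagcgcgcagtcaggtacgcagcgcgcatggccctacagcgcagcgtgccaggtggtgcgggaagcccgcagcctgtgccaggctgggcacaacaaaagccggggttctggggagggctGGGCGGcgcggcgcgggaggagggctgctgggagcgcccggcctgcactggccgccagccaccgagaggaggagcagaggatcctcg

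The Lck window held a TCF/LEF, an ETS and an SP/KLF match, and the Stat5b window an ETS match only. The Cbx7 and Timp2 windows held an NFY and an SP/KLF match each. The Stat5b window is not at the gene's outermost start, because a region further upstream (chr11:100842114-100842238) also lies inside Stat5b. Across the 114 promoter windows inside these regions, the ETS letters were found in 37.7%, against 28.2% of 11728 windows inside all regions that reached 3 CPM. The E-box was found in 14.0% against 9.89%, the TCF/LEF letters in 18.4% against 16.1%, and the SP/KLF letters in 66.7% against 63.0%. The other 4 sets were less frequent than in all windows: RUNX 19.3% against 21.5%, NFY 36.0% against 38.2%, AP-1 2.63% against 4.54% and NRF1 3.51% against 5.35%. Median GC content was 62.0% against 61.3%. A match is a run of letters, not a binding site, and several genes share a window, so these shares were not tested.

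By the rule, each of the 446 regions was lower in male VAT Tregs, and the size of the difference is a description. The median ratio of the male VAT Treg mean to the mean of the 6 other libraries was 0.620, and to the lowest other group 0.701. On the log2(CPM + 0.2) scale, male VAT Treg replicate 1 lay a median 0.61 below the mean of the 6 others and replicate 2 a median 0.75 below it. Replicate 2 was the lowest of the 8 libraries in 286 regions and replicate 1 in 160. Just inside the 0.75 limit lay regions at Ephb1, a receptor kinase (ratio 0.749), at BC051665 (0.749) and at Gabpb2 (0.7499). Just outside it lay regions at Mpped2 (0.75002), Lbr (0.75006) and Cmss1 (0.75009).

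**Figure D1:**
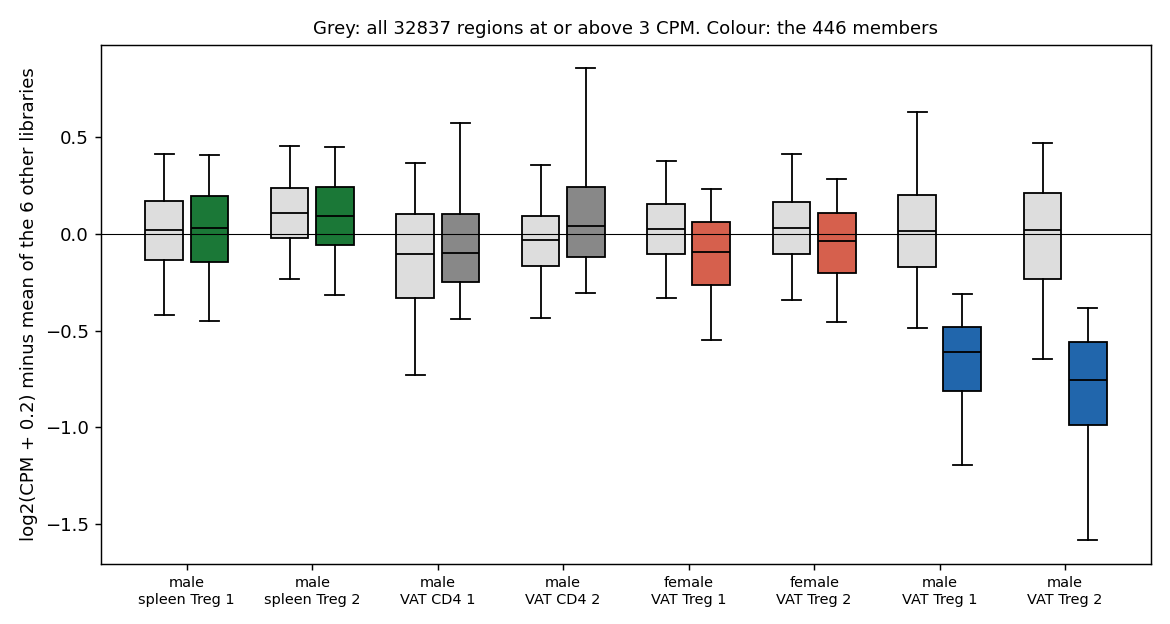
Log2(CPM + 0.2) minus the mean of the 6 libraries outside male VAT Tregs, by library. Boxes span the quartiles with the median as a line and whiskers from the 5th to the 95th percentile; grey boxes hold all 32837 regions at or above 3 CPM and coloured boxes the 446 regions lowest in male VAT Tregs. The coloured medians of the 2 male VAT Treg libraries lie at -0.61 and -0.75, as the selection requires, and those of the other 6 libraries between -0.10 and 0.09.

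Being lowest in male VAT Tregs is not the same as being called by a test. In edgeR's quasi-likelihood test over all regions (Benjamini-Hochberg adjusted p under 0.05), 59 of the 446 were called lower in male VAT Tregs than in the female ones, where 0.75% of 44691 autosomal regions tested were called lower. Against spleen Tregs 179 were called lower (background 2.13%), and against VAT CD4+ cells 189 (background 2.55%). Because the rule used these contrasts, nothing is read from the counts. All 3 contrasts were called for 22 regions and none for 164. The count of 59 was 8 without female VAT Treg replicate 2, 11 without female replicate 1 and 31 without male VAT Treg replicate 2. The count against spleen was 74 to 115 when any 1 of the 4 libraries of that contrast was left out, and the count against CD4+ cells was 85 without CD4 replicate 2 and 120 without male VAT Treg replicate 1.

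The regions with the lowest ratios were short, and several were open mainly in VAT CD4+ cells. A region of chromosome 14 (53804044 to 53804407), 2.23 kb from Trav17, had the lowest ratio. Trav17 is a variable segment of the T cell receptor alpha locus, which is rearranged in T cells with an alpha-beta receptor. Its CPM were 0.466 and 0 in male VAT Tregs. Female VAT Tregs had 1.94 and 2.31, spleen Tregs 0.739 and 1.34, and CD4+ cells 13.4 and 5.45. The male values rest on 7 and 0 counts, and a count of 0 allows up to 0.326 CPM in that library. Both CD4+ libraries stood above all other 6.

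Another 4 regions around Trav segments were selected as well, so 5 of the 7 Trav regions that reached 3 CPM were. In all 7 both CD4+ libraries exceeded the other 6. The 5 selected ones averaged 1.49 to 1.88 CPM without the CD4+ libraries, so they had to be higher in CD4+ cells to reach the minimum. Nothing is read from this order. At the region 53795225 to 53795418 the CPM were 0.599 and 0.434 in male VAT Tregs. The female VAT Treg libraries had 2.14 and 2.55, spleen Tregs 1.72 and 1.09, and CD4+ cells 13.4 and 8.53. The 3 regions at Trav17 follow one another directly, from 53795225 to 53804407.

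Outside the receptor locus, the lowest ratio was at a 151 bp region inside Tmem194b (chr1:52650170-52650321), listed as Nemp2 in RefSeq. Its CPM were 0.333 and 0.434 in male VAT Tregs. The female VAT Treg libraries had 0.917 and 1.70, spleen Tregs 1.36 and 1.73, and CD4+ cells 6.35 and 6.29. A region inside Strada and assigned to Limd2 too (chr11:106167487-106167778) was likewise highest in CD4+ cells, with 2.46 and 1.41 CPM in male VAT Tregs, 4.01 to 5.50 in the other Tregs and 11.3 and 13.4 in those cells. By contrast, at a region inside Tnni1 (chr1:135807735-135807858), which encodes a muscle troponin, the 6 other libraries lay close together at 2.19 to 4.75 CPM and male VAT Tregs at 0.931 and 1.41. Of the 10 lowest ratios, another 2 belong to regions with a predicted gene only, at chr3:52647969-52648088 and chr12:107118459-107118612. At the latter the 6 other libraries lay between 4.08 and 5.79 CPM, and male VAT Tregs at 1.66 and 1.74.

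**Figure D2:**
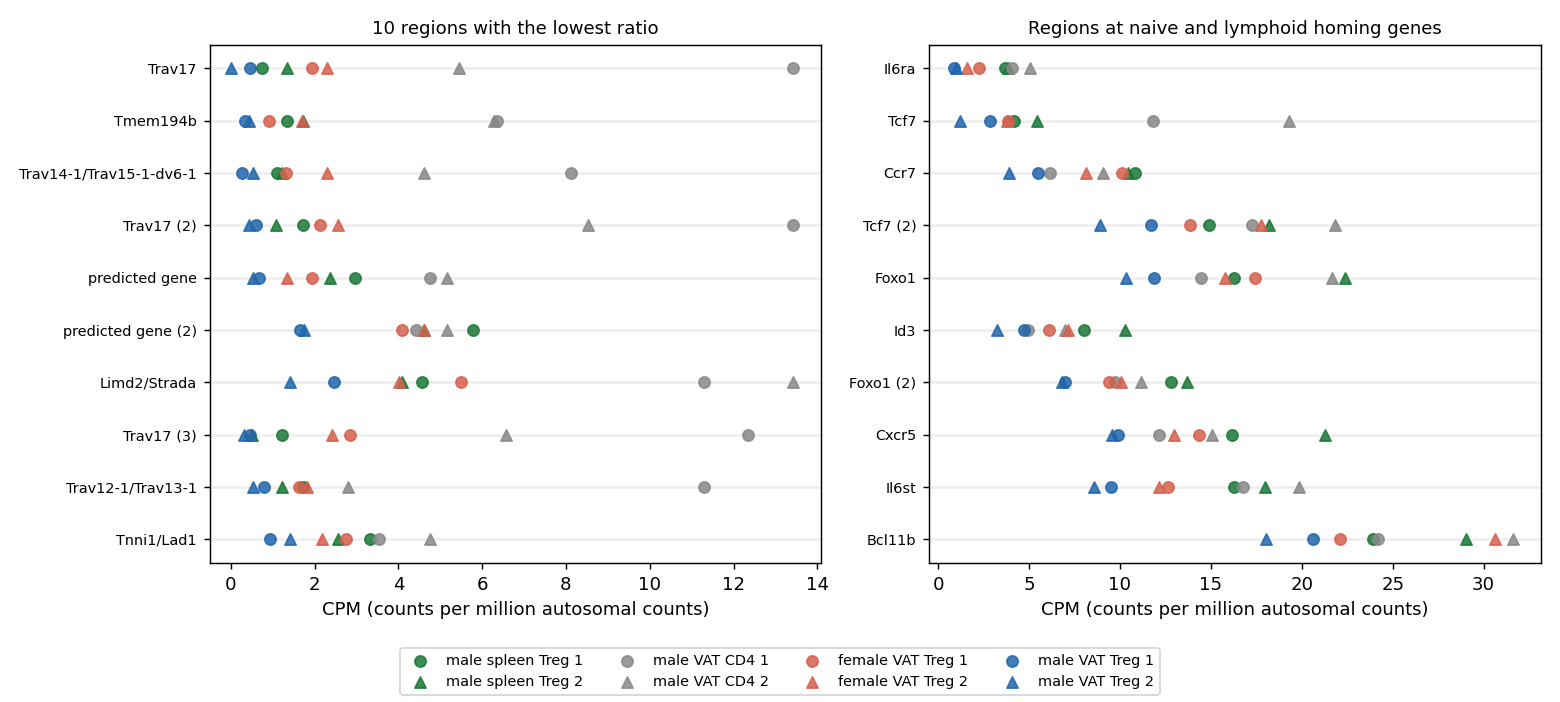
CPM of each library at the 10 regions with the lowest ratio of male VAT Tregs to the lowest other group (left) and at the 10 selected regions assigned to naive and lymphoid homing genes (right); circles are replicate 1 and triangles replicate 2. Numbers in parentheses tell apart regions assigned to the same gene. The blue male VAT Treg points are the lowest in every row, and the grey CD4+ points lie far to the right at the Trav, Tmem194b, Limd2/Strada and upper Tcf7 rows.

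The regions with the highest CPM, which depend on width since CPM are not per length, differed less. A wide region assigned to Fam86 (chr16:5533665-5550552) averaged 63.6 CPM in the 6 other libraries and 44.6 ± 5.17 (SD, n = 2) in male VAT Tregs. At Jak1, which encodes a kinase of cytokine receptors, a region in the gene (chr4:101183826-101191243) had 23.8 and 22.7 CPM in male VAT Tregs and 30.8 to 42.8 in the others. Both male libraries were alike there. At the P4hb and Arhgdia region (chr11:120571376-120575119) they were not, with 29.9 and 18.02 CPM against 33.3 to 40.8 in the others. The region at Gdf9, Leap2 and Uqcrq (chr11:53429267-53432874) showed the same split, with 32.0 and 21.1 CPM against 34.8 to 44.3. At Hmgn1, which encodes a nucleosome-binding protein (chr16:96126123-96129764), male VAT Tregs had 23.0 and 19.3 CPM and the others 26.8 to 40.7. The regions at Ccdc9 (chr7:16271832-16276001, 31.6 and 23.8 CPM against 37.1 to 43.2), Ubqln1 (chr13:58213641-58217718, 23.1 and 21.3 against 24.8 to 35.5) and Rab3ip (chr10:116912134-116916011, 19.9 and 18.02 against 21.2 to 34.1), and a further one assigned to Fam86 (chr16:5512624-5522827, 20.2 and 23.2 against 27.9 to 37.0), complete the 10 with the highest CPM. The ratio of male VAT Tregs to the mean of the others was 0.577 at Cbx7, the lowest of these 10, and 0.738 at Ubqln1, the highest.

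Cbx7, a Polycomb protein that reads a repressive histone mark, had 2 selected regions of the 3 that reached 3 CPM. The wider one (chr15:79928355-79936884), which holds the promoter shown, had 18.8 and 15.2 CPM in male VAT Tregs. The female VAT Treg libraries had 33.6 and 32.1, spleen Tregs 33.5 and 27.4, and CD4+ cells 22.0 and 28.2. The nearest library of another group was a CD4+ one. The shorter one (chr15:79927635-79928000) had 7.45 and 2.82 CPM in male VAT Tregs and 8.29 to 12.7 in the others.

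Genes that mark naive and recirculating T cells supplied 10 of the 446 regions. The list of 24 such genes covers 131 regions at or above 3 CPM, of which 7.63% were selected, against 1.36% of all such regions. Adipocyte markers were above 1.36% too (13.3% of 15 regions). So were zinc finger factors (4.88% of 82), ribosomal protein genes (4.2% of 71) and T cell receptor signalling genes (4.1% of 123). Splicing and RNA processing genes were below it, at 1.2% of 81. The VAT Treg, NF-kB, histone, translation, proteasome, myeloid, CD8 and NK, and stromal and endothelial lists had none. A share above 1.36% was thus not particular to naive genes. The median log2 ratio of male VAT Tregs to the others over the 131 regions was -0.13, and 0.0016 over all regions. The lists were drawn up with earlier results of these data known, and the shares are descriptions.

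Tcf7, which encodes the transcription factor TCF-1 of naive and memory-like T cells, had 2 of them. The upstream one lies 30.8 kb from the gene (chr11:52314131-52314602). It had 2.86 and 1.19 CPM in male VAT Tregs. Female VAT Tregs had 3.87 and 3.76, spleen Tregs 4.19 and 5.44, and CD4+ cells 11.8 and 19.3. The Treg groups thus lay far below CD4+ cells. The region inside Tcf7 (chr11:52273675-52277432) had 11.7 and 8.90 CPM in male VAT Tregs and 13.9 to 21.8 in the other 6.

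At Il6ra, which encodes the interleukin-6 receptor chain lost on activation of T cells, a region 4.92 kb from the gene (chr3:89864241-89864401) had 0.865 and 0.977 CPM in male VAT Tregs. Female VAT Tregs had 2.24 and 1.58, spleen Tregs 3.69 and 3.84, and CD4+ cells 4.06 and 5.03. This order also held at Il6st, the signalling chain that works with it, at a region 44.2 kb from the gene (chr13:112416161-112419908). There male VAT Tregs had 9.51 and 8.58 CPM, female VAT Tregs 12.6 and 12.1, spleen Tregs 16.3 and 17.98 and CD4+ cells 16.8 and 19.9. In both regions the female values lay between the male ones and those of the spleen, without overlap. The rule set male VAT Tregs lowest, and neither region was called between female VAT Tregs and spleen Tregs. The share of regions with this order was not counted.

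Among receptors that guide cells to lymphoid tissue, a region 7.00 kb from Ccr7 (chr11:99162072-99164345) had 5.52 and 3.91 CPM in male VAT Tregs. Female VAT Tregs had 10.1 and 8.14, spleen Tregs 10.8 and 10.4, and CD4+ cells 6.17 and 9.09. Of the 3 Ccr7 regions at or above 3 CPM, this was the one selected. A region 5.26 kb from Cxcr5 (chr9:44531702-44534905), which directs cells into follicles, had 9.91 and 9.56 CPM in male VAT Tregs and 12.2 to 21.3 in the others. Spleen Tregs were the highest there, at 16.1 and 21.3.

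Transcription factors of the list followed. Foxo1, which sustains homing and survival genes, had 2 regions, 44.6 and 59.7 kb from the gene. The first (chr3:52394662-52398313) had 11.9 and 10.3 CPM in male VAT Tregs and 14.5 to 22.4 in the others, and the second (chr3:52409781-52413216) had 6.98 and 6.84 against 9.38 to 13.7. A region 42.1 kb from Id3 (chr4:136099465-136101716), an inhibitor of E proteins, had 4.72 and 3.26 CPM against 4.94 to 10.3, so that male replicate 1 lay next to CD4 replicate 1. A region inside Bcl11b (chr12:107917417-107923168), a factor of T cell identity, had 20.6 and 18.02 CPM against 22.1 to 31.6.

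T cell receptor signalling genes supplied 5 of their 123 regions at or above 3 CPM. At the Lck region with the promoter shown (chr4:129556678-129560401), which the table assigns to Hdac1 as well, male VAT Tregs had 6.98 and 6.30 CPM, female VAT Tregs 10.9 and 9.59, spleen Tregs 15.0 and 15.7 and CD4+ cells 11.3 and 14.8. Lck is the kinase that starts receptor signalling. A region inside Cd28, the co-stimulatory receptor (chr1:60758287-60758541), had 3.86 and 2.39 CPM in male VAT Tregs, 3.98 to 5.71 in the other Tregs and 9.53 and 9.22 in CD4+ cells. A region 11.1 kb from Prkcq, a kinase of the same pathway (chr2:11158969-11160770), was selected too, with 3.39 and 2.61 CPM against 4.01 to 8.39. At Csk, which restrains Lck, the values were 6.58 and 4.13 CPM against 6.65 to 9.58.

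Of 74 regions at Treg core genes, 3 were selected. The Stat5b region with the promoter shown (chr11:100822179-100826070) had 14.3 and 10.6 CPM in male VAT Tregs and 14.6 to 23.8 in the others. Male replicate 1 lay next to CD4 replicate 1 there. Stat5b carries the interleukin-2 signal on which Tregs depend. A second Stat5b region (chr11:100842114-100842238) and a region in Nrp1 (chr8:128473994-128474116), a surface protein of thymus-derived Tregs, lay near the 0.75 limit, with ratios of 0.741 and 0.748. None of 69 regions at genes of the VAT Treg programme was selected, and none of 58 at NF-kB genes. With 1.36% of all regions selected, lists of this size cannot show fewer than that.

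Zinc finger factors of the KLF, SP and related families supplied 4 of 82 regions. Klf13 had 2 of them, and the one with the lower ratio, 59.8 kb from the gene (chr7:63998675-64001968), had 8.31 and 8.47 CPM in male VAT Tregs and 11.3 to 17.8 in the others. A region 28.8 kb from Egr2 (chr10:67502011-67505666), which limits T cell activation, had 7.45 and 8.47 against 11.5 to 15.4, and a region in Klf3 had 7.71 and 6.08 against 8.11 to 11.5. Chromatin regulators supplied 3 of 85, among them the Hdac1 and Lck region and a region in Ezh2, which writes the mark that Cbx7 reads, at 7.51 and 5.75 CPM against 8.13 to 12.1. Ribosomal protein genes supplied 3 of 71, cytokine receptors 3 of 78, ETS and RUNX factors (Etv6 and Fli1) 2 of 86, and AP-1 and IRF factors (Fos) 1 of 55. Histone genes supplied none of 37, as did translation factors (50) and proteasome genes (37).

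Of lists for other cell types, adipocyte markers had 2 selected regions of 15. Adipoq encodes the fat cell hormone adiponectin, and the region 1.09 kb from it had 5.72 and 5.32 CPM in male VAT Tregs against 6.28 to 9.22 in the others. The region assigned to Plin1, a lipid droplet protein, lies inside Pex11a and Wdr93 and had 9.11 and 7.49 against 9.53 to 15.7. Myeloid markers (11 regions at or above 3 CPM), CD8 and NK markers (11) and stromal and endothelial markers (20) had none.

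The 3 other groups can be compared with each other, but the 3 CPM minimum is a mean over all 6 of their libraries, CD4+ cells included. A short region low in all Tregs could therefore be selected because it was open in CD4+ cells. Without the CD4+ libraries, 34 of the 446 regions would have averaged under 3 CPM. Those regions had to be higher in CD4+ cells, so their difference from these cells is given as a description, and nothing is read from the counts of calls against CD4+ cells.

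In the same fit, 29 of the 446 regions were called lower in female VAT Tregs than in VAT CD4+ cells, where 1.54% of all autosomal regions were, and none was called higher, where 1.89% were. Of the 29, 15 would have been under the minimum without CD4+ cells. For spleen Tregs against CD4+ cells, 26 were called lower (background 2.09%), of which 13 would have been under it, and none higher (background 1.9%). At an unadjusted p under 0.05 stood 14.8% of the 446 regions for female VAT Tregs against CD4+ cells, near the 13.6% of all regions, and 13.2% against 15.6% for spleen Tregs. Of the 29, 26 were under 1000 bp wide, and of the 26, 23 were. The regions called in both contrasts, which share the CD4+ libraries, numbered 23, or 79.3% of the first and 88.5% of the second. The 29 became 10 and 13 without either female VAT Treg library and 16 without either CD4+ library, and the 26 became 15 without CD4 replicate 2 or spleen replicate 2.

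All 5 selected Trav regions were among those that reached the minimum through CD4+ cells, as was the Tmem194b region. At the Trav17 region 53802550 to 53802783, CD4+ cells had 12.3 and 6.57 CPM and spleen Tregs 1.23 and 0.512. A region inside Uvrag (chr7:99087040-99087306), which acts in autophagy, belonged to the same set. It had 11.1 and 13.4 CPM in CD4+ cells, 2.24 and 2.19 in female VAT Tregs, 2.34 and 2.24 in spleen Tregs and 1.46 and 0.869 in male VAT Tregs. So did a region 26.4 kb from Tgfbr3 (chr5:107080024-107080176), a co-receptor for TGF-beta, with 6.00 and 7.55 CPM in CD4+ cells and 1.63 and 1.34 in female VAT Tregs.

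The upstream Tcf7 region averaged 4.32 CPM without the CD4+ libraries and so did not need them to reach the minimum. It was lower in female VAT Tregs than in CD4+ cells (log2 fold change -2.15, SE 0.302, edgeR adjusted p = 5.62e-09) and in spleen Tregs likewise (-1.82, SE 0.287, edgeR adjusted p = 2.78e-07). At Cd28, which averaged 4.83 CPM without CD4+ cells, both differences were -1.09 (edgeR adjusted p = 0.0245 for female VAT Tregs and 0.0182 for spleen Tregs), and neither held when any 1 library of its contrast was left out.

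Between female VAT Tregs and spleen Tregs, none of the 446 was called by edgeR at adjusted p under 0.05, where 0.812% of all regions were called higher and 0.177% lower. Without adjustment, p was under 0.05 for 30, or 6.73%, where 8.27% of all regions were under it. Of the 30, 29 were lower in female VAT Tregs. The split by direction at this p was not counted over all regions, so nothing is read from it. For this contrast limma-voom and DESeq2 called none of the 446. With the 2 groups fitted alone, 5 were called, and leaving out either male VAT Treg library gave 4. The median log2 fold change was -0.07 over the 446 regions and -0.01 over all. Nearest to the threshold were the Trav17 region at 53802550, higher in female VAT Tregs (log2 fold change 1.75, SE 0.516, edgeR adjusted p = 0.0523), and a region 14.6 kb from D16Ertd472e (chr16:78591294-78591469) with 1.73 and 2.19 CPM in female VAT Tregs and 6.90 and 4.22 in spleen Tregs (-1.46, SE 0.437, edgeR adjusted p = 0.0602). Next came a region in Rftn2, assigned to Mars2 too, with 8.56 and 8.62 CPM in female VAT Tregs and 13.3 and 16.6 in spleen Tregs. A p that misses the threshold does not show that the groups were alike.

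The regions were of 2 kinds by a width limit of 1000 bp. There were 133 under 1000 bp, 29.8% of the 446 against 11.8% of all regions at or above 3 CPM, and 313 of 1000 bp or more. The short ones had a median of 3.80 CPM in the 6 other libraries and a median ratio of 0.523, and the long ones 11.1 CPM and 0.637. CD4+ cells were the highest of the 3 other groups in 72 of the 133 short regions and in 67 of the 313 long ones. Over all widths they were highest in 31.2% of the 446, against 23.8% of all regions at or above 3 CPM. That background was not split by width, and 34 of the 446 reached the minimum through CD4+ cells, so nothing is read from these counts. None of the short regions held a whole promoter window, but a window spans 300 bases and their median width was 153 bp, so most could not. Their low counts leave more counting error in their ratios than in those of the long regions.

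The regions were not spread evenly over the chromosomes. Chromosome 11 held 78 of them, 17.5% of the 446 against 4.47% of all regions at or above 3 CPM, so that 5.32% of its regions were selected. Chromosome 19 followed with 17 of 562 regions, or 3.02%, and the other 17 chromosomes had 0.372% to 1.79%. The 2 male VAT Treg libraries differed there. Over all regions of 1000 bp or more on chromosome 11, the median log2 deviation from the 6 other libraries was -0.41 in male replicate 2 and -0.01 in replicate 1, and on chromosome 19 it was -0.31 and 0.03. Of the 78 regions on chromosome 11, replicate 2 lay below replicate 1 in 69, and elsewhere in 217 of 368. The 78 include the regions named above at Tcf7, Ccr7, Stat5b, Limd2 and Strada, Gdf9, and P4hb, and those at Timp2.

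By itself, replicate 2 was at or below 0.75 times the lowest other group in 74 of the 78 chromosome 11 regions, and replicate 1 in 29. On the other chromosomes the numbers were 269 and 251 of 368. Both replicates met that limit singly in 177 of the 446 regions. When the selection was made without male replicate 2, 939 regions met it. Without replicate 1, 1890 met it. Chromosome 11 held 20.6% of the regions with replicate 2 alone and 4.79% with replicate 1 alone, where it holds 4.47% of all regions, and the cause was not tested.

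**Figure D3:**
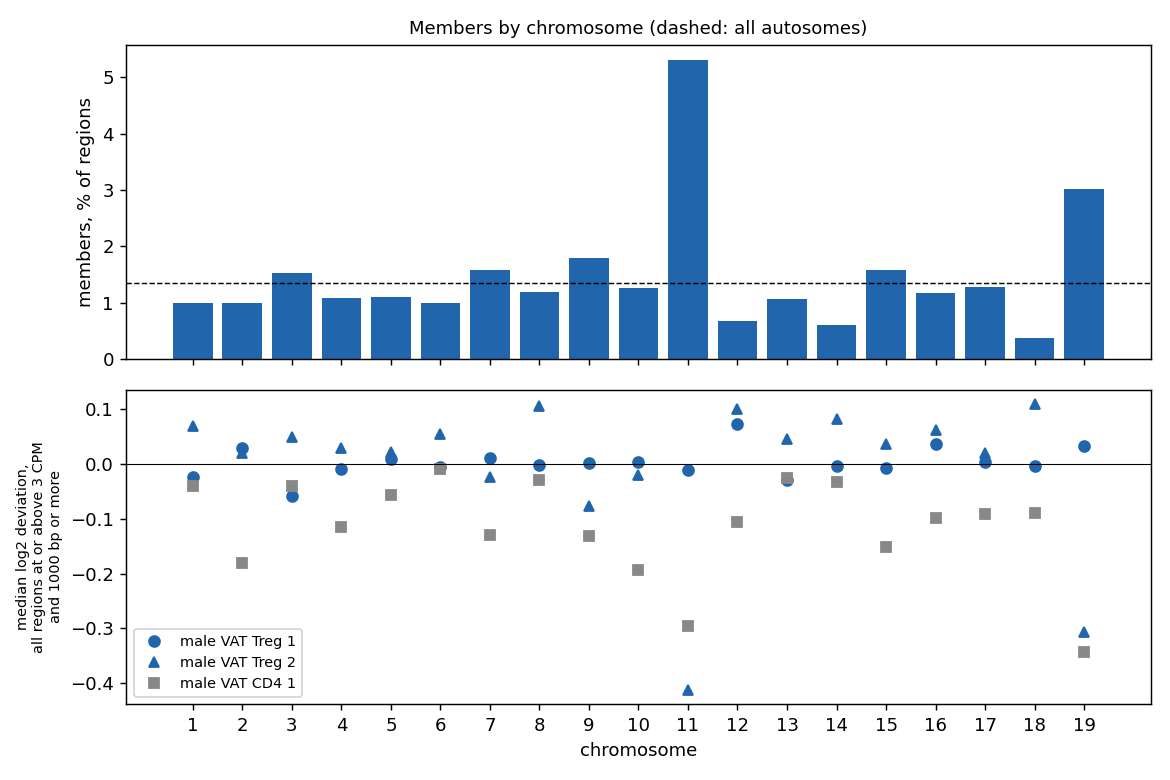
Upper panel, share of each chromosome's regions at or above 3 CPM that were selected as lowest in male VAT Tregs, with the share over all autosomes dashed. Lower panel, median log2(CPM + 0.2) minus the mean of the 6 other libraries over all regions of 1000 bp or more, for the 2 male VAT Treg libraries and CD4 replicate 1. The bar of chromosome 11 reaches 5.32%, where male VAT Treg replicate 2 has a median of -0.41 and replicate 1 of -0.01.

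The share selected also differed with gene density. It was 0.942% with no protein-coding gene within 500 kb on either side, 0.593% where 1 to 2 genes lay there, 1.40% at 6 to 10 genes, 2.18% at 21 to 30 and 3.75% at over 50. Over the same classes the median deviation of all regions of 1000 bp or more went from 0.155 at 1 to 2 genes to -0.55 at over 50 in male replicate 2, while in replicate 1 it lay between -0.11 and 0.05 in all classes. CD4 replicate 1 went the same way as male replicate 2, from 0.06 to -0.43. With each library centred within classes of gene density, an alternative added after seeing the data, 412 regions met the rule, 328 of them among the 446. Of these 412, 13.1% had over 20 genes nearby, compared with 28.3% of the 446, and 63 lay on chromosome 11. Of the 10 regions at naive and homing genes, 9 still met the rule.

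**Figure D4:**
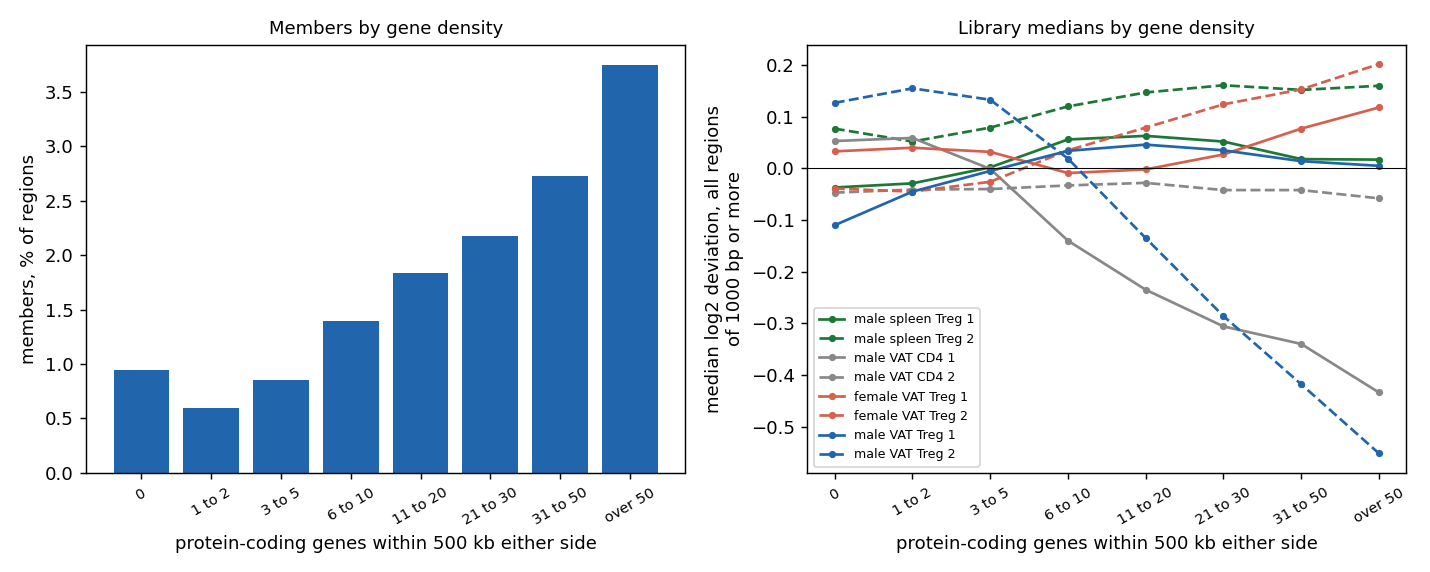
Left, share of regions at or above 3 CPM that were selected, by the number of protein-coding genes within 500 kb on either side. Right, median log2(CPM + 0.2) minus the mean of the 6 libraries outside male VAT Tregs, over all regions of 1000 bp or more in each class, by library. The share rises to 3.75% while the medians of male VAT Treg replicate 2 and CD4 replicate 1 fall to -0.55 and -0.43; male VAT Treg replicate 1 ends at 0.005.

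Within chromosomes, 52 of the regions were next to another one in the order of all regions, and 101 lay within 100 kb of another. The longest run was of 4 neighbouring regions upstream of and inside Igfbp2, which encodes a binding protein of insulin-like growth factors (chr1:72768089-72835183). At the one with the lowest ratio to the others (chr1:72795822-72797623) male VAT Tregs had 3.46 and 4.34 CPM and the other 6 libraries 6.53 to 8.25. The ratio to the others was 0.517 to 0.679 over the 4. The flanking regions were also lower in replicate 1, for example 101 CPM against 121 to 148 at the wide region next to them (chr1:72848601-72881010), where replicate 2 had 122.

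Myo16, which encodes an unconventional myosin, had the most, with 5 of its 27 regions, all inside the gene. A further 4 lie beyond its end, where the table assigns a predicted gene, so 9 of the 26 regions from chr8:10401393 to 10847073 were selected. At the first 3, which follow one another, male VAT Tregs had 8.18 and 9.56, 8.25 and 9.88, and 3.39 and 3.48 CPM, against 12.1 to 14.0, 11.6 to 16.9 and 6.11 to 8.06 in the others. Between the selected regions lie others with more accessibility in male VAT Tregs. At chr8:10534808-10535287 these had 28.4 and 15.2 CPM and the others 1.601 to 5.65, and at chr8:10499787-10500554 they had 21.7 and 11.3 against 2.05 to 5.82.

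Of the 26 regions, 24 reached 3 CPM. In 3 of these 24 both male libraries were above all 6 others, and in 9 below them. Across all regions at or above 3 CPM, both male libraries were above all others in 6.3% and below all others in 4.2%. The 9 are the selected regions themselves, which set the ends of the stretch, so their share is not read against the 4.2%. At Fam86, whose selected regions lie 155.6 to 277.7 kb from the gene on chromosome 16, 4 regions were selected, and of its 20 regions, those under 3 CPM included, 5 had both male libraries below all others and 5 above. A region before the first of them (chr16:5371216-5371627) had 20.6 and 8.58 CPM in male VAT Tregs and 1.06 to 2.66 in the others. At Timp2, 3 of 4 neighbouring regions were selected (chr11:118336515-118356530). The first had 4.52 and 3.69 CPM in male VAT Tregs against 6.99 to 11.8, and the one with the promoter shown 6.52 and 5.54 against 7.23 to 11.95.

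**Figure D5:**
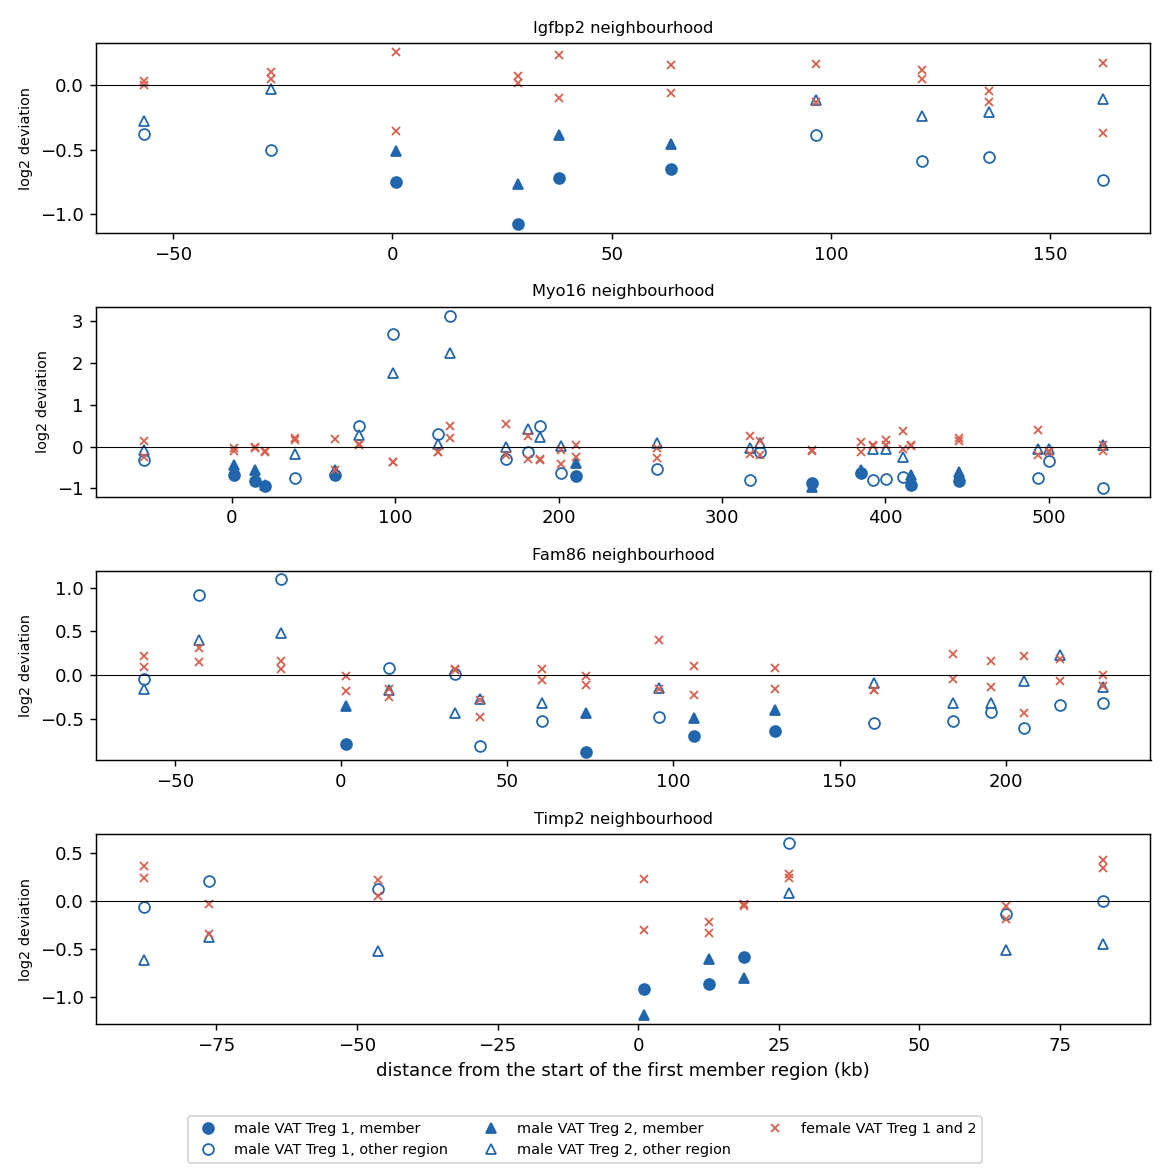
Log2(CPM + 0.2) minus the mean of the 6 libraries outside male VAT Tregs, against distance in kb from the start of the first selected region, for 4 gene neighbourhoods; regions under 3 CPM in those 6 libraries are left out. Filled blue symbols are selected regions, open blue symbols the regions around them, and red crosses the female VAT Treg libraries. All 4 regions between 0 and 67.1 kb at Igfbp2 are filled, and at Myo16 the open symbols of male VAT Tregs near 98.8 and 134 kb stand above 1.5.

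Of all 446 regions, 100 lay within 100 kb of a region called higher in male VAT Tregs than in spleen Tregs, or 22.4%, compared with 17.1% of all regions at or above 3 CPM. For regions called higher than in female VAT Tregs the shares were 9.42% and 7.81%, and than in CD4+ cells 22.9% and 19.1%. By place, 55.2% had their midpoint in a protein-coding gene against 49.3% of all, and 19.7% held a whole promoter window against 26.1%, on the chromosomes with RefSeq promoter entries. A window spans 300 bases, and 29.8% of the 446 were under 1000 bp against 11.8% of all. The promoter shares were not compared at equal width, so nothing is read from them. With 2 libraries a group and no statement that the pools came from separate experiments, the p-values measure only the spread between these libraries.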

How the data were processed

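ATAC-seq libraries of 4 groups of 2 were compared. The authors deposited raw counts per region, with 62205 entries for 46624 distinct regions, and a log2 CPM value per region for each library. The submitters' processing notes list the mm10 (GRCm38) build and the tools featureCounts, HOMER 4.9, limma and Subread 1.6.2, with no role for any. How regions were called is not given in the sources used here, and whether starts count from 0 or 1 is not stated. Regions keep the genes the deposited count table assigns, which can be far away. The log2 CPM served for 1 alternative selection only.

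CPM here are counts divided by the sum over distinct autosomal regions. Regions of chromosomes 1 to 19, X and Y kept by filterByExpr were fitted in edgeR 4.0.16 (R 4.3.3) with TMM, 1 coefficient per group and the quasi-likelihood test, with p-values adjusted over all regions kept; all 8 libraries share 1 estimate of spread. limma 3.58.1 and DESeq2 1.42.0 gave alternatives, as did other scalings, no filter, fits of 2 groups and leaving out each library. Scripts were tested on simulated data. Libraries were not paired by number, because those with the same number did not deviate together (r from -0.134 to 0.0591).

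The members, gene lists and rules were chosen with earlier results of these data known. Named regions are the 10 with the lowest ratio, the 10 with the highest CPM, up to 4 per gene list (all 10 for naive genes), those nearest the limit, genes with most regions and some of the 5 largest called differences in each other contrast; the 4 promoters, the Cd28 and upstream Tcf7 contrasts and the regions near the threshold were picked after seeing values. A few regions the rule names are not reported here. Coordinates and depth limit precision as stated with the values, and floors cover counting error only.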

Additional observations from a re-analysis of the deposited data

How the results depend on the processing

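Of 108 alternative values for the 6 counts of called regions, 80 stayed within 1.5 times the count reported. For male against female VAT Tregs (59) the count was 36 with library size alone and 13 with DESeq2, and 8 to 67 with 1 library left out. Against spleen Tregs (179) it was 74 with DESeq2 and 74 to 181 with 1 library left out. Against CD4+ cells (189) it was 112 with library size alone, 116 with the 2 groups alone, 101 with DESeq2 and 85 to 175 with 1 library left out. Female VAT Tregs against spleen Tregs (0) gave 1 without the filter, 5 with the 2 groups alone and 0 to 4 with 1 library left out; female VAT Tregs against CD4+ cells (29) gave 17 with DESeq2 and 10 to 35, and spleen Tregs against CD4+ cells (26) gave 15 to 31. Library size alone shifted the median log2 fold change of all regions by up to 0.15, in spleen Tregs against CD4+ cells.

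With the replicate number as a block the 6 counts were 46, 142, 159, 0, 26 and 25, and with the CD4 numbers crossed the count of male VAT Tregs against CD4+ cells was 182. The number of regions meeting the rule was 698 with TMM-scaled CPM, 712 with the authors' deposited log2 CPM, 144 at a ratio limit of 0.67, 692 at 0.80, and 390 to 1890 with 1 library left out (760 without CD4 replicate 1). Causes were not tested. Depth limits the short regions most.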
